A study of Mus musculus with 6 samples.

Results

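The 4 EGR transcription factor genes, the corepressor genes *Nab1* and *Nab2*, and *Srf* were followed in cerebellar RNA from control mice and from mice lacking *Slc39a8* in neurons (*Slc39a8*-NSKO). These 7 genes were taken by name from the 53715 genes of the deposited RNA-Seq table, and all 7 were found in it. RNA came from the cerebellum of male mice at 4 weeks of age, with 3 mice per genotype, of the strain C57BL/6 in the labels and C57BL/6J in the methods. In *Slc39a8*-NSKO mice, Cre recombinase under the *Synapsin I* promoter deletes floxed *Slc39a8*, which encodes the metal ion transporter ZIP8, in neurons. The Cre is directed at neurons, whereas the RNA came from whole cerebellum, which also holds other cells. The sample labels call the control genotype WT, whereas the study describes its control genotype as *Slc39a8* fl/fl. The methods state that each sample was a separate mouse, although a legend of the study speaks of technical triplicates. If the legend is right, the p values here measure technical spread alone.

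EGR proteins are zinc-finger transcription factors whose genes are switched on within minutes of synaptic activity, growth factors, or calcium entry, without new protein synthesis. They bind GC-rich sites, and EGR1 is widely used as a marker of recently active neurons. NAB1 and NAB2 bind some of the EGR proteins, among them EGR1, and repress their activity. Since *Nab2* is itself an EGR target, the pair closes a feedback loop. SRF lies upstream, where it binds CArG boxes together with ternary complex factors such as ELK1, which ERK phosphorylates, or with MRTF cofactors, which respond to actin. CREB acts through the cAMP response element (CRE) on many of the same immediate-early genes.

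Promoter sequences from RefSeq (GRCm38.p6) were matched for 5 of the 7 genes, namely *Egr2*, *Egr4*, *Nab1*, *Nab2*, and *Srf*. The 250 bases before each start site were searched on both strands for the CArG box, the full CRE (TGACGTCA), its core (TGACG), the EGR site (GCGNGGGCG), and an ETS site (CCGGAA) of the kind that ELK proteins bind. The CRE core is contained in the full CRE, so these matches can overlap. Of 32851 promoter windows of the same length, 1.47% held a CArG box, 1.55% the full CRE, 17.8% the CRE core, 4.7% the EGR site, and 12% the ETS site. The promoters of *Egr4* (chr6:85513590-85513839, minus strand) and *Srf* (chr17:46556163-46556412, minus strand) and a stretch of that of *Nab1* (chr1:52500549-52500578, minus strand) are shown 5′ to 3′, since their genotypes did not overlap and these windows held matches. The *Nab1* stretch was chosen for the EGR site and the CRE core next to each other and holds 1 of its 3 EGR sites. Capitals mark matches to the CArG box, the CRE core, the EGR site, or the ETS site.
Egr4: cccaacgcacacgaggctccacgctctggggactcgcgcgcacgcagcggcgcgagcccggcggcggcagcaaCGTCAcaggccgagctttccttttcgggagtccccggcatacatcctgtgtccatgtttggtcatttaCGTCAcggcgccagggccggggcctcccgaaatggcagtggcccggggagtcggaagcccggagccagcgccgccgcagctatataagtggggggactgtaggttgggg
Srf: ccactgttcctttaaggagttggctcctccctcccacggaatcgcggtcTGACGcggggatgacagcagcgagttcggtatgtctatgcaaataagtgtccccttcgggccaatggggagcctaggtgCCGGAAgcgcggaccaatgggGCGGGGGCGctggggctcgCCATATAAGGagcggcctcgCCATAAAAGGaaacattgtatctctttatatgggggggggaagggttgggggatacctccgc
Nab1: ggatctgCGTCActcggccgcGCGTGGGCG

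*Srf* held 2 CArG boxes, beginning 82 and 62 bases before the start site, together with 1 ETS site, 1 EGR site, and 1 CRE core. *Egr4* held 2 CRE cores, beginning 177 and 109 bases before the start site, and no match to the CArG box in this window. *Nab1* held 3 EGR sites, beginning 141, 109, and 38 bases before its start site, and 1 CRE core between the first and the second. Most of this window, with the whole stretch printed, lies within the span of *Nab1* in the GENCODE annotation. The RefSeq window of *Nab2* (chr10:127666704-127666953, minus strand) held none of these letters, and it too lies within the GENCODE span of its gene. *Egr2* has several annotated start sites, and the window at chr10:67537619-67537868 (plus strand) held 1 CArG box flanked by 2 CRE cores. The windows that begin at 67537620 and 67537680 overlap it and held the same matches. The window at 67537316-67537565 held 1 CArG box and 3 ETS sites but no CRE core. That at 67535249-67535498 held no match. None of the windows of these genes held the full CRE. A match describes letters and does not show binding.

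**Figure D1:**
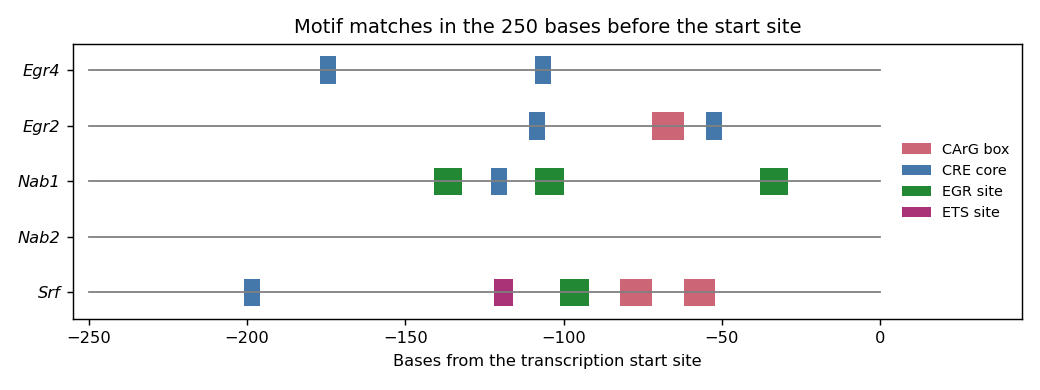
Positions of motif matches in the 250 bases before a RefSeq start site of 5 genes, with *Egr2* drawn for the window at chr10:67537619-67537868 alone. The x axis gives bases from the start site, and coloured blocks mark matches on either strand. *Srf* shows 2 CArG boxes, *Egr4* 2 CRE cores, and *Nab1* 3 EGR sites, while the *Nab2* line is empty.

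The counts on genes ranged from 14431260 to 20844267 per mouse. Values are given as CPM, counts scaled by library size after normalization of the libraries by edgeR's TMM method. *Slc39a8* itself had 4.78, 3.2, and 2.83 CPM in control mice 1 to 3 and 1.90, 2.05, and 2.18 CPM in *Slc39a8*-NSKO mice 1 to 3. The genotypes did not overlap, and the *Slc39a8*-NSKO mean was 56.8% of control. The cerebellar label was borne out by *Cbln3*, a granule cell gene, at means of 1562 and 1615 CPM in the 2 genotypes, and by *Calb1*, a Purkinje cell gene, at 1072 and 1078 CPM. As these are bulk tissue samples, fewer cells of a type and less RNA per cell cannot be told apart.

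In edgeR's quasi-likelihood test over the 16330 genes kept by its filter on low counts, 0 of the 5 members tested passed an adjusted p of 0.05, where 0.0980% of all genes passed. *Egr2* and *Egr3* were too low to pass the filter. At an unadjusted p below 0.05, 4 of the 5, namely *Egr1*, *Egr4*, *Nab1*, and *Nab2*, lay lower in *Slc39a8*-NSKO cerebellum, against 3.14% of all genes tested. In each of the 5, including *Srf*, the highest *Slc39a8*-NSKO value was under the lowest control value, against 5.26% of all genes tested. Each of the 5 had at least 104 counts in every mouse. Their log2 fold changes had a median of −0.33, beside 0.0011 over all genes tested. DESeq2 gave 1 member, *Nab1*, at an adjusted p below 0.05, where 0.134% of genes passed as lower. With no filter on low counts edgeR's test gave 3 members, *Egr1*, *Egr4*, and *Nab1*, where 0.412% of genes passed as lower. Without control mouse 1, 3 members were lower at an unadjusted p below 0.05, against 4.46% of genes.

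**Figure D2:**
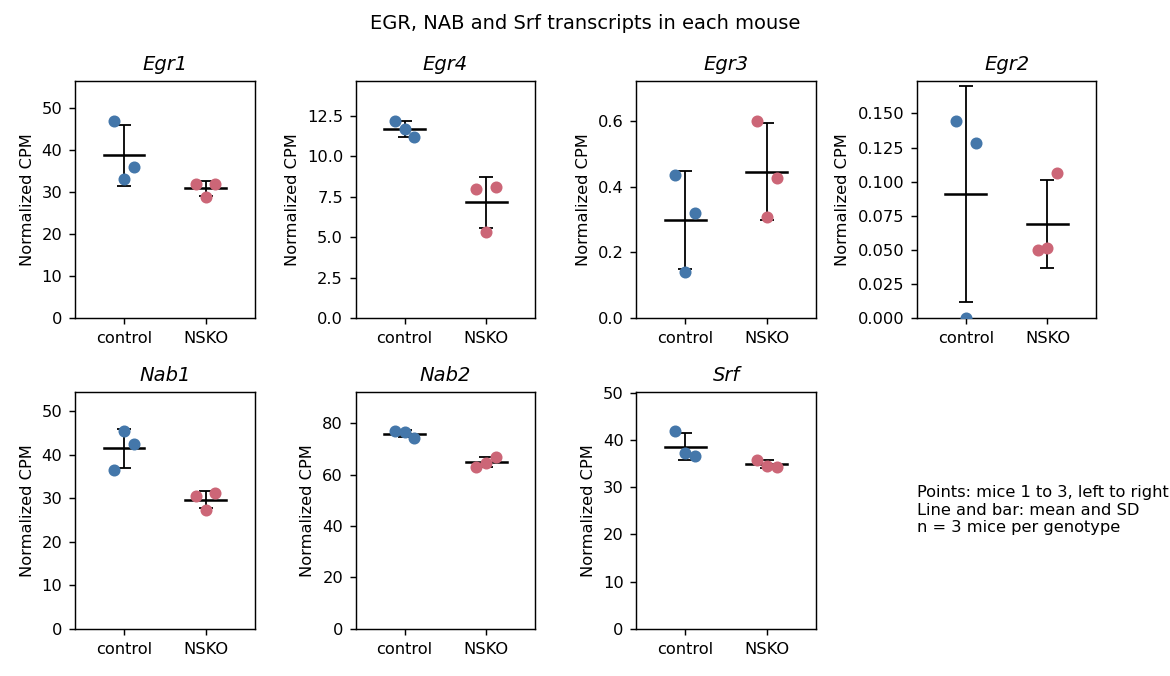
Normalized CPM of each gene in each mouse, with 3 control (blue) and 3 *Slc39a8*-NSKO (red) mice; lines and bars are means and SD, and each y axis starts at 0 and has its own scale. The genotypes are apart in *Egr1*, *Egr4*, *Nab1*, *Nab2*, and *Srf* and overlap in *Egr2* and *Egr3*, which stay below 0.7 CPM.

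*Egr1* (ENSMUSG00000038418.7), which spans positions 34859823 to 34864984 of chromosome 18 (GRCm38, plus strand), encodes the EGR family member best known from learning and from growth factor responses. It had 47.0, 33.1, and 35.9 CPM in control mice 1 to 3 and 31.8, 28.9, and 32 CPM in *Slc39a8*-NSKO mice 1 to 3. Control mouse 1 stood above all others, and the lowest control mouse was only just above the highest *Slc39a8*-NSKO mouse. The means were 38.7 ± 7.32 and 30.9 ± 1.77 CPM (SD, n = 3 mice each), and the log2 fold change was −0.33 (standard error 0.109, unadjusted p = 0.00918, adjusted p = 0.75 from edgeR's test). The 95% interval reached from 67.4% to 93.5% of the control level. Without control mouse 1 the log2 fold change was −0.16 (unadjusted p = 0.0771 from edgeR's test).

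*Egr4* (ENSMUSG00000071341.4), on the minus strand of chromosome 6 from 85511121 to 85513589, encodes an activity-induced relative that is needed for male fertility. Its values were 12.2, 11.7, and 11.2 CPM in control mice 1 to 3, and 8.01, 5.34, and 8.13 CPM in *Slc39a8*-NSKO mice 1 to 3. The control mice lay close together, and *Slc39a8*-NSKO mouse 2 was the lowest of all. The mean of 7.16 ± 1.58 CPM in *Slc39a8*-NSKO mice was 61.2% of the control mean of 11.7 ± 0.515 CPM (SD, n = 3 mice each). This was the largest difference among the 5 members tested, at −0.71 on the log2 scale (standard error 0.153, unadjusted p = 0.000418, adjusted p = 0.163 from edgeR's test). It ranked number 42 by p among all genes tested, and its 95% interval was 48.7% to 76.8% of control. Without *Slc39a8*-NSKO mouse 2 the log2 fold change was −0.54.

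*Egr3*, which encodes a factor required for muscle spindles, was read 9, 2, and 5 times in the controls (mice 1 to 3), against 12, 6, and 8 times in *Slc39a8*-NSKO cerebellum. The genotypes overlapped. The summed counts of 16 and 26 gave a rate 1.41 times that of control, with an exact 95% interval from 0.73 to 2.82 that covers counting error alone. *Egr2*, which encodes a factor of hindbrain segments and of Schwann cell myelination, was read 3, 0, and 2 times in the controls, against 1, 1, and 2 times in *Slc39a8*-NSKO cerebellum. A difference in *Egr2* or *Egr3* was not detectable at this depth, where a count of 0 allows up to 3 counts, or 0.209 CPM in the control mouse without an *Egr2* count. Of the Schwann cell markers, *Foxd3* and *Pmp2* were at 0 in every mouse.

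*Nab1* (ENSMUSG00000002881.14), a corepressor gene on the minus strand of chromosome 1 from 52457294 to 52500679, had 36.5, 45.3, and 42.4 CPM in control mice 1 to 3. It had 30.5, 27.4, and 31.1 CPM in *Slc39a8*-NSKO mice 1 to 3. Here control mouse 1, the highest for *Egr1*, was the lowest of the controls. The means were 41.4 ± 4.51 and 29.7 ± 2.01 CPM (SD, n = 3 mice each), or 71.6% of control. *Nab1* had the lowest p of the members, at −0.48 on the log2 scale (standard error 0.087, unadjusted p = 9.65e-05, adjusted p = 0.063 from edgeR's test), and ranked number 25 among all genes tested. The 95% interval was 63.1% to 81.9% of control. Its adjusted p was 0.0054 with DESeq2 and 0.111 with limma-voom, and without control mouse 1 it was 0.00798 in edgeR's test, where 0.162% of genes passed as lower.

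*Nab2* (ENSMUSG00000025402.12), on the minus strand of chromosome 10 from 127660918 to 127668568, had 76.9, 76.7, and 74.3 CPM in control mice 1 to 3 and 62.9, 64.5, and 66.9 CPM in *Slc39a8*-NSKO mice 1 to 3. Both genotypes were tight and lay clearly apart. The means of 76.0 ± 1.41 and 64.8 ± 2.01 CPM (SD, n = 3 mice each) gave 85.3% of control, a log2 fold change of −0.23 (standard error 0.057, unadjusted p = 0.00126, adjusted p = 0.342 from edgeR's test). Exons of *Nemp1*, *Stat6*, and *Gm16229* overlap *Nab2* on the other strand, and whether the counting used the strand is not given in the sources used here. The *Nab2* counts of the control mice were not whole numbers, so reads can have been divided between genes. The log2 fold change was −0.18 (standard error 0.104) for *Nemp1* and 0.03 (standard error 0.138) for *Stat6*, and the genotypes overlapped in both, while *Gm16229* was not among the genes tested.

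*Srf* (on the minus strand of chromosome 17 from 46548329 to 46556175) had 41.8, 37.2, and 36.6 CPM in control mice 1 to 3 and 35.8, 34.6, and 34.2 CPM in *Slc39a8*-NSKO mice 1 to 3. The genotypes did not overlap, but the gap between them was less than 1 CPM. Its log2 fold change was −0.15 (standard error 0.072, unadjusted p = 0.0598, adjusted p = 0.928 from edgeR's test), which did not pass at the unadjusted threshold either. Its 95% interval ran from 81.0% to 100.5% of control. Without control mouse 1 the log2 fold change was −0.08.

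**Figure D3:**
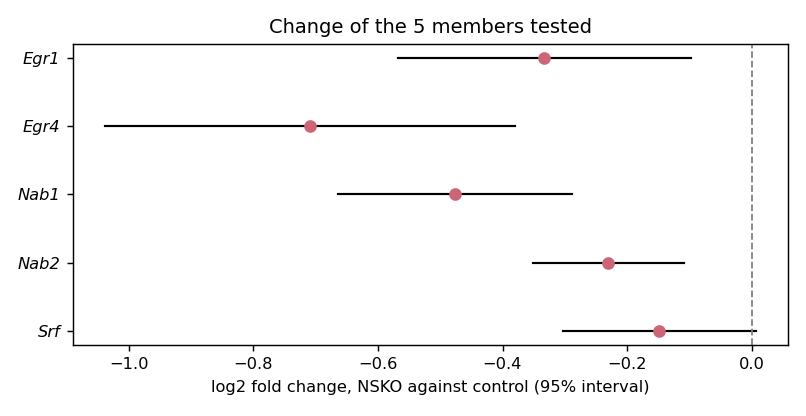
Log2 fold change of the 5 genes tested, *Slc39a8*-NSKO against control; points are edgeR estimates from 3 mice per genotype and lines are 95% intervals. *Egr4* lies farthest from 0 at −0.71, and the interval of *Srf* reaches 0.

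The differences of the members were also compared with each other through log2 ratios of their counts within each mouse, which do not depend on the library normalization. Of 21 pairs, 0 passed after adjustment, since 3 mice against 3 cannot give a p below 0.1 in the exact two-sided permutation test (adjusted p = 0.42 at the lowest). The log2 ratio of *Egr1* to *Egr4* had a mean of 1.71 in control and 2.13 in *Slc39a8*-NSKO mice. It was higher in every *Slc39a8*-NSKO mouse, by a mean of 0.42 (exact two-sided permutation test, p = 0.1). *Egr4* made up at least 20.4% of the counts on the 4 EGR genes in each control mouse and less in each *Slc39a8*-NSKO mouse, down to 15.5%. The ratio of *Egr4* to *Nab2* was lower in every *Slc39a8*-NSKO mouse, as was that of *Egr4* to *Srf*, with mean log2 differences of −0.50 and −0.59 (exact two-sided permutation test, p = 0.1 each). These ratios share the counts of *Egr4* and are not separate results. The genotypes were also apart for *Egr1* to *Egr3* (−0.89) and *Egr3* to *Egr4* (1.31; exact two-sided permutation test, p = 0.1 each). *Egr3* had at most 12 counts in any mouse. For *Egr1* to *Nab2* the ratios overlapped, with a mean difference of −0.08 (exact two-sided permutation test, p = 0.8).

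Per kilobase of exon, *Nab2* had the highest level of the 7 genes, at 25.8 ± 0.481 CPM per kb in control mice (SD, n = 3). *Srf* followed with 13.3 ± 0.996, *Nab1* with 10.1 ± 1.10, *Egr1* with 8.62 ± 1.63, and *Egr4* with 5.44 ± 0.240 CPM per kb. The levels of *Egr3* and *Egr2* were far lower, at 0.0677 ± 0.0338 and 0.0268 ± 0.0233 CPM per kb. The control values of *Nab1* and *Egr1*, and those of *Egr3* and *Egr2*, overlapped, whereas all other neighbours in this order were apart. The order was the same in *Slc39a8*-NSKO mice, where *Nab1* and *Egr1* again overlapped. Corepressor transcripts were thus at higher levels per kilobase than those of any EGR gene by mean.

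**Figure D4:**
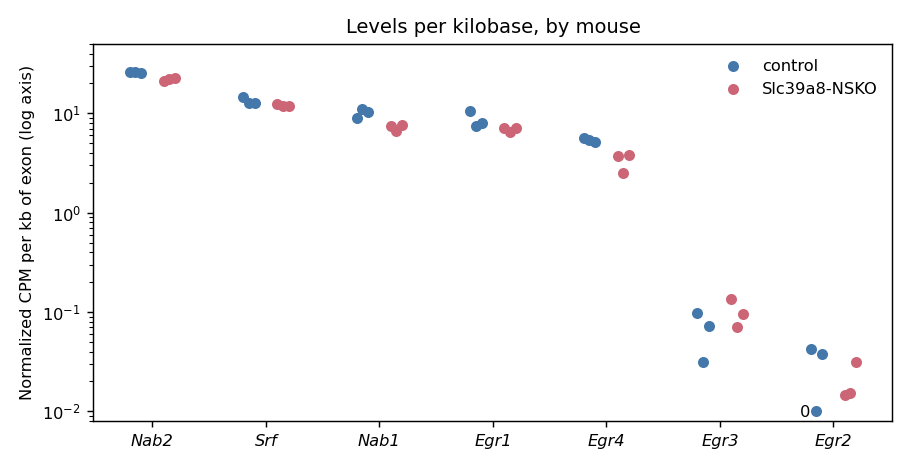
Normalized CPM per kilobase of exon (log axis) of the 7 genes in each of 3 control and 3 *Slc39a8*-NSKO mice; the 1 control value of 0 for *Egr2* is drawn at the lower edge. *Nab2* lies highest, and *Egr3* and *Egr2* lie below 0.2 CPM per kb.

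Genes upstream and downstream of the EGR factors were counted by group, with no test between groups. Among 12 targets of SRF with ternary complex factors, 3 passed the threshold as lower and 0 as higher in *Slc39a8*-NSKO mice, 7 were lower at an unadjusted p below 0.05, and the median log2 fold change was −0.36. Over all genes tested, 0.0980% passed the threshold in either direction and 3.14% were lower at an unadjusted p below 0.05. *Fos* and *Fosb*, subunits of AP-1, were 76.3 ± 11 and 3.36 ± 0.570 CPM in control and 20.4 ± 8.32 and 0.533 ± 0.200 CPM in *Slc39a8*-NSKO mice (SD, n = 3 each). Both fell, with log2 fold changes of −1.91 and −2.65 (adjusted p = 0.000578 and 0.00228 from edgeR's test). *Nr4a1*, a nuclear receptor gene, fell by 1.49 on the log2 scale (adjusted p = 9.5e-05 from edgeR's test). These 3 genes were already known to differ in these data when the list was drawn up. The study describes the same 3 as inducible genes that respond to CREB, so they are not particular to SRF. *Dusp1*, a phosphatase that inactivates MAP kinases, was 99.7 ± 18.2 and 60.6 ± 17.7 CPM (SD, n = 3 each; log2 fold change −0.72, adjusted p = 0.21 from edgeR's test). *Btg2*, *Ier2*, and *Junb* had values between −0.46 and −0.34 and did not pass either.

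*Arc*, a synaptic immediate-early gene that both SRF and EGR proteins are known to drive, was 17.5 ± 1.91 CPM in control and 19.3 ± 2.61 CPM in *Slc39a8*-NSKO mice (SD, n = 3 each), and the genotypes overlapped. It was singled out after its values were seen. Of the 14 genes described as EGR targets, 0 passed the threshold, with a median log2 fold change of 0.02. At an unadjusted p below 0.05, *Nab2* was lower and *Cdk5r1*, the activator of the kinase CDK5, was higher with a log2 fold change of 0.17 (adjusted p = 0.877 from edgeR's test), where 2.25% of all genes tested were higher. *Syn1*, whose promoter drives the Cre, was 182 ± 3.09 and 189 ± 16.5 CPM (SD, n = 3 each).

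Of the MRTF-type targets of SRF, 14 of 16 were tested, 1 passed as higher and 0 as lower, and their median log2 fold change was 0.04. The gene that passed was *Actc1*, the actin of heart muscle, at 0.427 ± 0.379 CPM in control and 3.77 ± 0.868 CPM in *Slc39a8*-NSKO mice (SD, n = 3 each; adjusted p = 0.0223 from edgeR's test). Other heart muscle transcripts, looked up after their values were seen, were also higher. *Myh6*, a cardiac myosin heavy chain gene, was 0.221 ± 0.199 and 4.44 ± 0.636 CPM (SD, n = 3 each; adjusted p = 0.000629 from edgeR's test), and *Tnnt2*, the cardiac troponin T gene, was 0.546 ± 0.262 and 2.41 ± 0.351 CPM (SD, n = 3 each; adjusted p = 0.0338 from edgeR's test). Their part in the value of *Actc1* was not tested. DESeq2 and limma-voom did not call *Actc1*, and it was lost when *Slc39a8*-NSKO mouse 1 or 2 was left out. The cytoskeletal actins *Actb* and *Actg1*, at about the same level in both genotypes, had log2 fold changes of 0.02 and 0.01. *Ccn1*, a matrix protein gene, had one of −0.91 (adjusted p = 0.321 from edgeR's test), and the genotypes did not overlap. It was the 1 gene of this list that lay lower without overlap, against 5.26% of all genes tested. The 2 that lay higher without overlap were *Actc1* and *Tpm1* (log2 fold change 0.06), against 5.07% of all genes tested.

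None of the 5 SRF cofactors tested and none of the 17 genes of the Ras, ERK, RSK, and MSK kinase pathway passed the threshold in edgeR's test, and 1 cofactor and 0 of the pathway genes had an unadjusted p below 0.05. That cofactor was *Elk1*, at 56.7 ± 4.21 CPM in control and 64.4 ± 3.98 CPM in *Slc39a8*-NSKO mice (SD, n = 3 each). It was higher in every *Slc39a8*-NSKO mouse, as were 5.07% of all genes tested, with a log2 fold change of 0.18 (adjusted p = 0.867 from edgeR's test). Lower without overlap were 1 cofactor, *Elk4* (−0.14), and 2 pathway genes, *Mapk3* and *Sos1* (−0.11 each), against 5.26% of all genes tested. Among the pathway genes 1, *Map2k1* (0.05), was higher without overlap. The pathway genes had log2 fold changes between −0.11 and 0.07 and a median of −0.0050. Of the factors that bind GC boxes, such as *Sp1*, 0 of 6 tested passed. *Klf13*, at a log2 fold change of 0.13 (adjusted p = 0.916 from edgeR's test), was the gene of this group with an unadjusted p below 0.05.

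**Figure D5:**
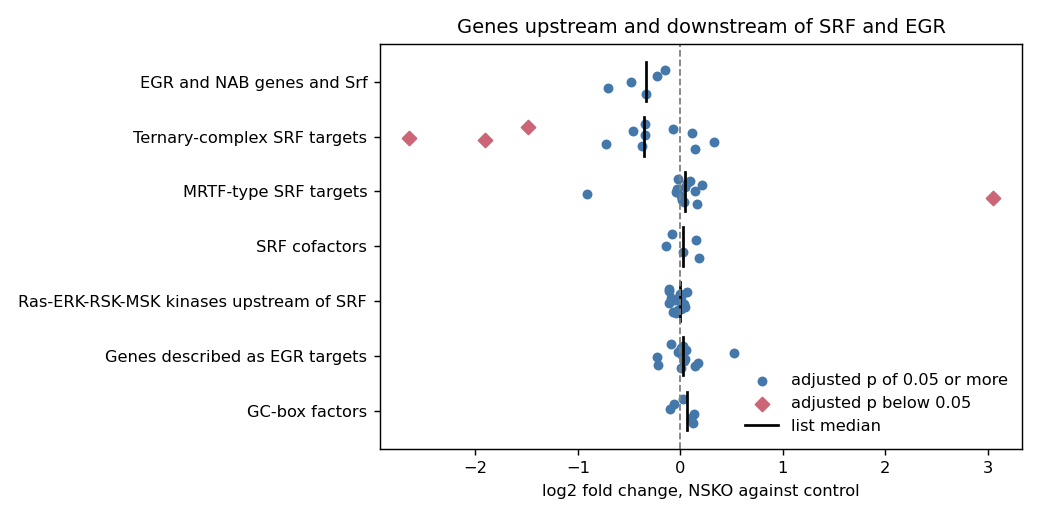
Log2 fold change of each gene tested, *Slc39a8*-NSKO against control, in 7 groups of genes; diamonds passed an adjusted p of 0.05 in edgeR's test and black lines are group medians. The medians of the EGR, NAB, and *Srf* genes (−0.33) and of the ternary-complex SRF targets (−0.36) lie left of 0, and those of the other groups between −0.01 and 0.06.

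The genes whose levels followed each EGR gene most closely over the 6 mice were found by the root mean square difference of centred log2 CPM. For *Egr1* these were *Gm15672*, *Kcng2*, a potassium channel subunit gene, and *Skil*, a repressor of TGF-beta signaling, at differences of 0.072 to 0.080. For *Egr4* they were *Gm43776*, *3110001I22Rik*, and *Gm11585*, at 0.124 to 0.126. All but *Skil* were below 4 CPM. For both genes, 0 of these 3 were among the 3 nearest by Pearson correlation, so the names depend on the measure. Between members, *Nab2* and *Srf* were closest, at 0.081, and *Egr4* and *Srf* farthest apart, at 0.349.

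Markers of other cells were compared as well, against 2.25% of all genes tested that were higher at an unadjusted p below 0.05. None of the 8 granule cell markers had an unadjusted p below 0.05, and their summed level was 4949 to 5196 CPM in control and 4917 to 5320 CPM in *Slc39a8*-NSKO mice. Of the 8 Purkinje cell markers 1, *Itpr1*, was higher at that threshold, with sums of 7452 to 8600 and 8290 to 8900 CPM. Of the 8 markers of Bergmann glia and astrocytes 3 were higher, namely *Gfap*, *Hopx*, and *Aqp4*, and their sums were 4485 to 4739 and 4702 to 4823 CPM. The microglial markers summed to 119 to 133 CPM in control and 139 to 141 CPM in *Slc39a8*-NSKO mice and did not overlap, with *Csf1r* higher at an unadjusted p below 0.05. The endothelial (150 to 182 and 155 to 173 CPM) and oligodendrocyte (8430 to 9618 and 7843 to 9469 CPM) sums overlapped. None of these markers passed the adjusted threshold in edgeR's test as reported. With no filter on low counts 1 Purkinje cell marker and 1 marker of Bergmann glia and astrocytes passed. So did 1 of the former without control mouse 1 and 1 of the latter with the replicate number as a block. More genes passed in these settings, at 178 of 27187, 38 of 16621, and 41 of 16330, against 16 of 16330 in the main test. The part of these markers in the values of the EGR, NAB, and *Srf* genes was not tested.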

How the data were processed

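Cerebellar RNA of 3 control and 3 *Slc39a8*-NSKO mice was sequenced. The authors deposited an expected count per gene and mouse, unscaled for library size or gene length. The submitters' processing notes list FastQC, STAR, RSEM, DESeq2, and mm10; versions and the strand setting of counting are not given in the sources used here; the labels name a directional library kit. Left out were 92 spike-in rows. Expected counts were rounded and analysed in R 4.3.3 with edgeR 4.0.16 (TMM, filterByExpr, glmQLFit, glmQLFTest, no covariate, Benjamini-Hochberg over 16330 genes, threshold 0.05). DESeq2 1.42.0 and limma 3.58.1 (voom) were alternatives. Names, positions, and exon lengths came from GENCODE M21 (GRCm38), which held 53620 of 53715 genes. Levels per kilobase used the union of exons, and ratios a pseudocount of 0.5. Patterns used log2 CPM with a prior count of 2. The tests were tried on simulated data. No 2 libraries agreed within sampling noise (chi-square per degree of freedom at least 4.01).

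The members and lists were chosen with earlier results of these data known. Named genes are the members, *Slc39a8*, up to 4 genes of lowest unadjusted p below 0.05 per list, those past the threshold, and the 3 nearest in pattern to each EGR gene tested. *Arc*, *Actb*, *Actg1*, *Syn1*, *Sp1*, *Btg2*, *Ier2*, *Junb*, *Nemp1*, *Stat6*, *Myh6*, *Tnnt2*, and the markers given for identity were named in addition, after their values were seen. The summed level of the Schwann cell markers is not reported here.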

Additional observations from a re-analysis of the deposited data

How the results depend on the processing

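The 5 members tested lay lower in *Slc39a8*-NSKO mice under all 14 alternatives to the main setting, most of which kept edgeR's test. Since their genotypes did not overlap, leaving out a mouse could hardly reverse this direction. With RLE normalization or library size alone the genotypes did not overlap either. *Nab1* passed an adjusted p of 0.05 with DESeq2 (log2 fold change −0.48, 1 member of 37 genes called), and *Nab1*, *Egr4*, and *Egr1* passed with no filter on low counts (−0.47, −0.70, and −0.33; 3 members of 178 genes called, lower in 0.412% of genes tested). At a threshold of 0.1, 1 member and 27 genes passed, against 0 and 16. With each mouse left out, 0 to 1 members and 9 (without *Slc39a8*-NSKO mouse 2) to 38 genes (without control mouse 1) passed, and the log2 fold change of *Nab1* was −0.56 to −0.41. The count of members lower at an unadjusted p below 0.05 was chosen after seeing the data. It was 3 without control mouse 1, against 4.46% of genes. Without control mouse 3 or with the replicate block, *Srf* also had an unadjusted p below 0.05 (0.0447 and 0.0437 from edgeR's test). The share of all genes was not counted in these settings, so their count of members is not given. The cause of these changes was not tested. With the replicate number as a block, 41 genes and 0 members passed, and no member's call at the adjusted threshold changed. The deviations of mice with the same number correlated at 0.142, 0.116, and 0.0104 for mice 1, 2, and 3. Those of mice 1 and of mice 2 were the highest of all control and *Slc39a8*-NSKO pairs. Control mouse 3 did not correlate best with its own number, and the numbers were not taken to pair the mice. This does not exclude a pairing. The calls in 2 target lists moved with the filter, to 7 for the ternary-complex and 2 for the MRTF-type targets of SRF with none. Depth limits *Egr2* and *Egr3*, which had log2 fold changes of −0.44 and 0.52 without a filter (adjusted p = 0.978 and 0.905 from edgeR's test).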
